A study of Onthophagus taurus and Onthophagus nigriventris with 71 samples.

Results

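Horned beetles of the genus Onthophagus differ in where their horns grow, and the thorax of a horn-bearing pupa was compared here between O. taurus and O. nigriventris. The comparison used every array that set thoracic epidermis against dorsal abdominal epidermis of the same species, sex and morph, which came to 31 of the 71 arrays of the series. O. taurus contributed 12 arrays, 4 for each of the female, large male and small male groups. O. nigriventris contributed 19, made up of 7 female, 5 large male and 7 small male arrays. All animals were wild type, unmanipulated, laboratory reared and taken as pupae up to 24 h after pupation, and each tissue sample pooled 4 individuals. Females were labelled as a range of sizes. The quantity compared was the log2 ratio of thorax and abdomen, called the thorax effect below. The species difference was O. nigriventris minus O. taurus, taken within females, large males and small males and averaged over these with equal weight.

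Adult males of O. taurus carry horns on the head when large and are nearly hornless when small, whereas adult males of O. nigriventris carry them on the thorax. Horns form in the pupa as outgrowths of the epidermis. Pupae of O. taurus also grow a thoracic horn, in both sexes, which is resorbed before the adult emerges, so thoracic outgrowth is not itself foreign to that species. Abdominal epidermis forms no such outgrowth and served as the comparison tissue. A ratio to abdomen can move through the thorax, the abdomen or both. In pooled tissue, fewer cells of a type and less RNA per cell cannot be told apart.

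The array was designed for O. taurus, with 3840 probes on 40 plates. The probes carry plate and well names, and 0 of 3840 matched a table of 16956 O. taurus genes, so the results are given by probe and the labelled tissue could not be checked against marker genes. The ratios had been deposited already turned to one direction, most likely thorax over abdomen, but the labels do not state it. Effects are therefore called positive or negative, and all signs would change together if the direction were the other. The O. taurus arrays were much alike, with a correlation across probes of 0.722 to 0.937 between any pair. The O. nigriventris arrays were less alike. Their mean correlation was 0.490 between arrays of the same dye orientation and 0.161 between arrays of opposite orientation. The residual SD was 0.337 in O. taurus and 0.698 in O. nigriventris on the log2 scale. The SD of an array across probes was 0.800 to 0.964 in O. taurus. In O. nigriventris it was 0.494 to 1.19, and the narrowest were small male 4 at 0.494 and female 3 at 0.610.

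The 2 species shared the broad pattern of their thorax effects but differed in size at many probes, and most of these differences were smaller effects in O. nigriventris. The averaged species difference passed limma's test at an adjusted p under 0.05 for 754 of 3840 probes, 19.6% of those tested. Of these, 406 were positive (10.6% of all probes) and 348 negative (9.06%), and 219 exceeded 1 on the log2 scale (5.7%). With each array scaled to one spread 1350 passed. The thorax effect itself was called for 1749 probes in O. taurus (45.5%) and for 1209 in O. nigriventris (31.5%). The arrays of O. taurus and O. nigriventris did not overlap at all for 50 probes (1.3%), with O. nigriventris above in 25 and below in 25. How well each O. taurus probe hybridised to O. nigriventris RNA was not tested, since signal intensities were not used here. Of the 754, 724 had the same sign of the difference in females, large males and small males, against 1231 of the 3086 probes not called. The call rests on the average of these same groups, so this describes the called probes and is no test.

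**Figure D1:**
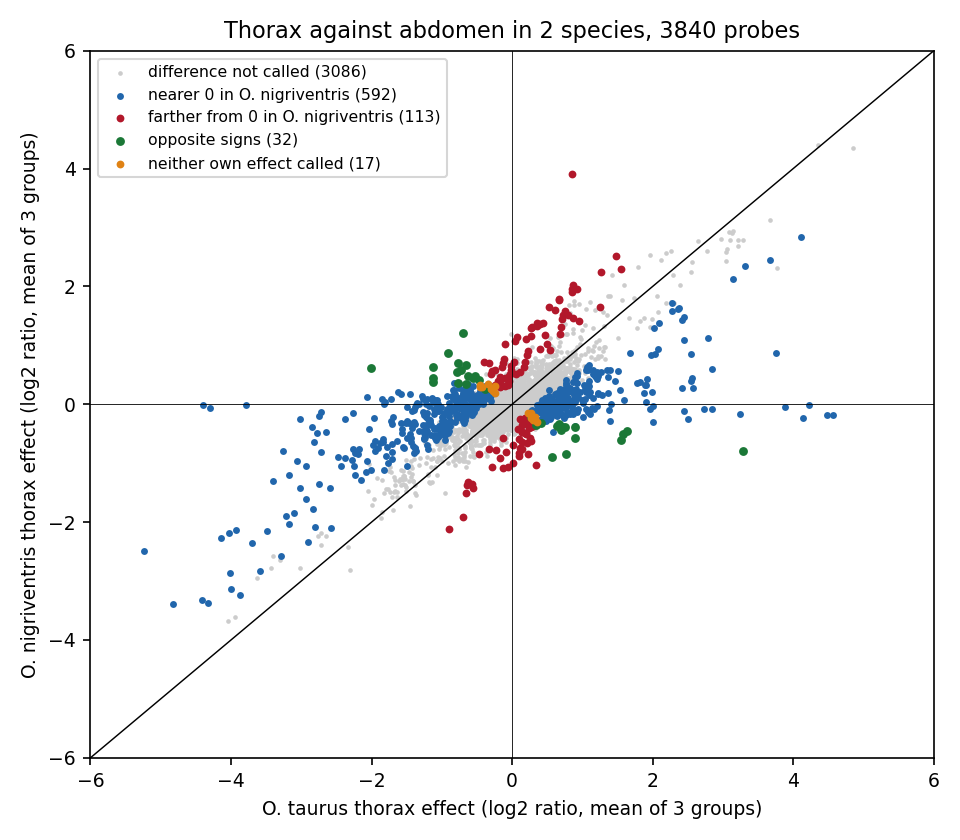
Thorax effect of O. nigriventris against that of O. taurus for 3840 probes (both axes log2 ratios, mean of females, large males and small males; the diagonal marks equal effects). The 592 probes in blue lie nearer 0 in O. nigriventris and many form a horizontal band at 0, while 113 in red lie farther from 0 and 32 in green have opposite signs.

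Sorting the 754 probes by the thorax effect of each species described the differences. The largest class, 407 probes (54% of the 754), had a called effect in O. taurus and none in O. nigriventris. Its median size was 0.712 in O. taurus and 0.116 in O. nigriventris. A further 185 probes (24.5%) were called with the same sign in both species and were smaller in O. nigriventris, with median sizes of 0.618 against 1.51. In the other direction, 79 probes (10.5%) had a called effect in O. nigriventris alone, and 34 (4.51%) were called in both and larger in O. nigriventris. Opposite signs were called for 32 probes (4.24%), and for 17 (2.25%) neither effect was called. Thus 592 of the 754 lay nearer 0 in O. nigriventris (78.5%) and 113 lay farther from it (15%). Over all 3840 probes, called or not, the effect was smaller in size in O. nigriventris at 2500 (65.1%). These classes use the same arrays as the difference, so they describe it and do not test it again. The shares were different when each dye orientation was fitted alone, with fewer arrays and no dye term. They were 47.2% nearer and 39.5% farther with thorax in Cy5 alone, and 47% and 42.7% with thorax in Cy3 alone. Each such fit leaves the dye difference of O. nigriventris, given below, in its thorax effect. The part of the dye in these shares was not tested.

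The 16 probes with the widest differences, selected for size and for one sign in all 3 groups, held 8 negative differences, and 7 of these had a large positive effect in O. taurus with values around 0 in O. nigriventris. OtL009-F10 had the widest negative difference. In O. taurus its log2 ratio was 4.97, 4.09, 3.99 and 3.55 in females, 5.37, 4.84, 5.29 and 4.40 in large males, and 4.62, 4.44, 5.02 and 4.23 in small males. In O. nigriventris the lowest, median and highest values were -2.20, -0.04 and 0.59 in 7 females, and -1.29, -0.24 and 3.07 in 7 small males. The 5 large males stood at -0.48, -0.13, -1.86, 0.30 and -0.22. Every O. taurus array lay above every O. nigriventris array, and the O. nigriventris arrays fell on both sides of 0, with 7 above it and 12 below. The averaged difference was -4.75 ± 0.35 (SE, limma adjusted p = 1.11e-11). The plot of single arrays for probes with a wide difference shows this probe beside 5 others.

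OtP013-D03 behaved alike. It spanned 3.55 to 5.12 over the 12 O. taurus arrays and -1.53 to 0.94 over the 19 O. nigriventris arrays, and its difference was -4.67 ± 0.23 (limma adjusted p = 1.99e-15). OtL012-B01 differed by -4.38 ± 0.31, with 3.25 to 6.81 in O. taurus and -1.60 to 1.20 in O. nigriventris. For OtL006-D08 the difference was -3.94 ± 0.23, with 3.49 to 4.34 against -2.49 to 0.87. In none of these probes did the species overlap. All 4 were as strongly positive in O. taurus head and legs, where OtL009-F10 averaged 4.86 and 5.33 and OtP013-D03 averaged 4.83 and 4.98. A positive ratio to abdomen at these probes was therefore common to the thorax, head and legs of O. taurus.

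OtL014-H10 was of another kind. In the O. taurus thorax it was 5.20, 3.89, 4.72 and 3.69 in females, 4.10, 4.21, 4.61 and 3.77 in large males, and 4.35, 4.37, 4.75 and 2.995 in small males. In O. nigriventris it ranged from -1.85 to 2.36 in females with a median of 0.57, and from -1.77 to 1.50 in small males with a median of 0.36. The large males were at -1.94, 1.06, -0.09, -1.98 and -0.10. The species did not overlap, and the difference was -4.23 ± 0.31 (limma adjusted p = 1.06e-11). Unlike the probes above, OtL014-H10 was negative in O. taurus head and legs, with means of -1.58 and -1.67, so its positive value was found in the thorax of O. taurus and in neither of those tissues. OtL004-C06 and OtP015-E07 were also weaker outside the O. taurus thorax. The former averaged 3.25 in the thorax, 1.12 in the head and 1.13 in the legs, and differed between species by -3.42 ± 0.30. The latter averaged 2.85, 0.65 and 0.28, and differed by -2.94 ± 0.20.

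**Figure D2:**
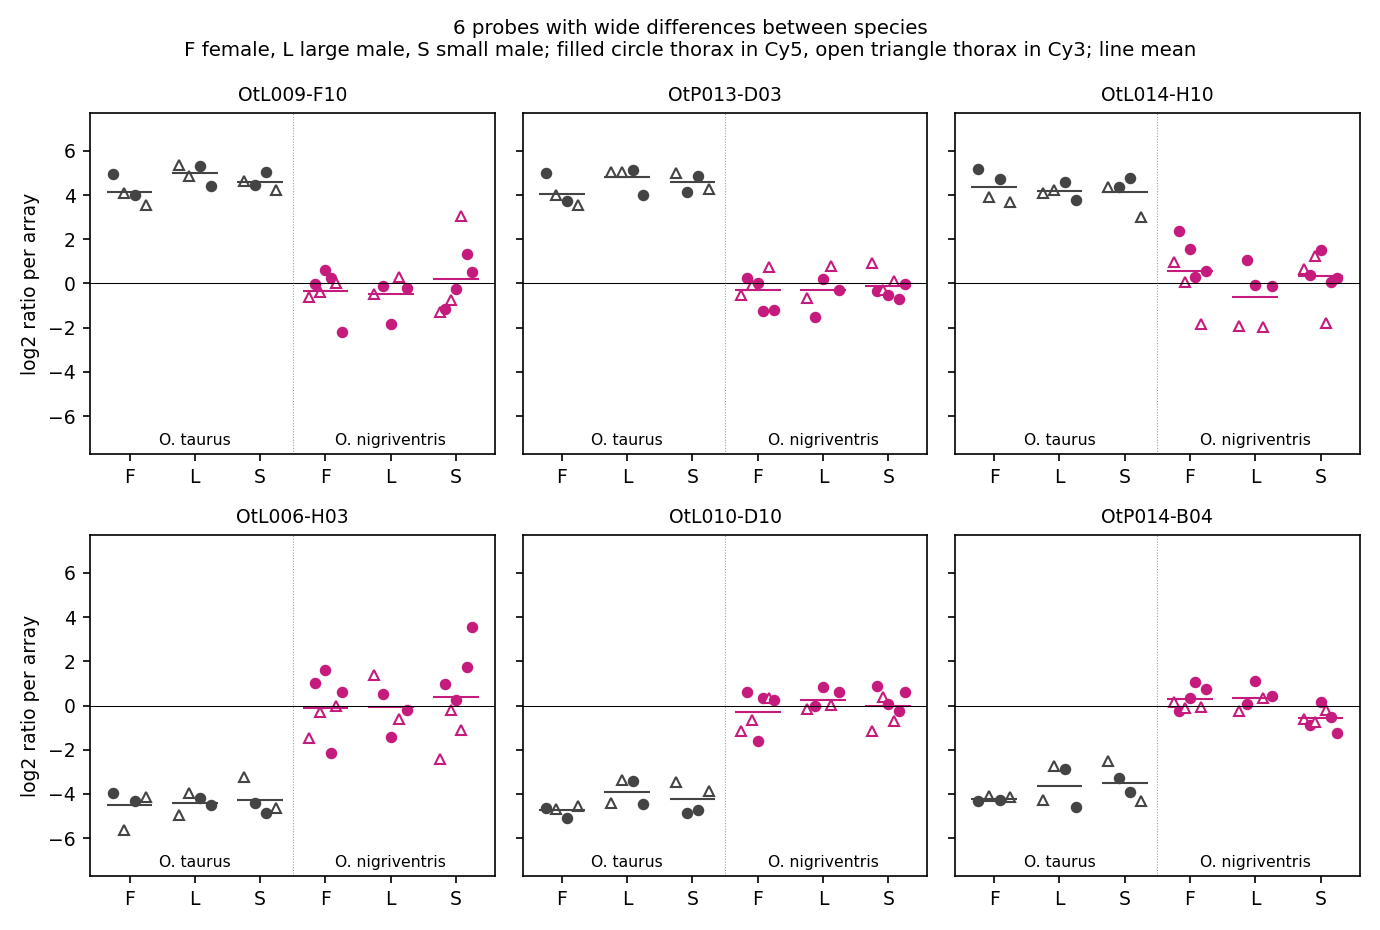
Log2 ratio of thorax and abdomen on each of 31 arrays for 6 probes with a wide difference between species (vertical axis; F female, L large male, S small male; filled circles thorax in Cy5, open triangles thorax in Cy3; lines group means). O. taurus lies far from 0 in every group, above it in the top row and below it in the bottom row, and O. nigriventris scatters around 0.

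The widest positive differences were mostly the mirror image, with a strongly negative effect in O. taurus. OtL006-H03 in O. taurus was -3.97, -5.65, -4.31 and -4.13 in females, -4.94, -3.96, -4.17 and -4.49 in large males, and -3.22, -4.40, -4.84 and -4.64 in small males. In O. nigriventris it ran from -2.16 to 1.60 in females (median -0.02) and from -2.41 to 3.56 in small males (median 0.27). The 5 large males were at 1.39, 0.50, -1.44, -0.59 and -0.19. The species were separate on all arrays although the O. nigriventris values spread over almost 6 units, and the difference was 4.37 ± 0.42 (limma adjusted p = 3.35e-09). OtL010-D10 differed by 4.24 ± 0.22 and OtP014-B04 by 3.77 ± 0.21, again without overlap. OtL007-G06 differed by 2.77 ± 0.26 and OtP007-A07 by 2.59 ± 0.32. All 5 were negative in O. taurus head and legs too, where OtL010-D10 averaged -4.43 and -4.04.

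Not every strong O. taurus effect was near 0 in O. nigriventris. Of the 140 probes with an O. taurus effect over 2 in size, 29 lay within 0.5 of 0 in O. nigriventris and 59 were over 2 with the same sign. The share of probes called between species was higher where the O. taurus effect was larger, going from 7.17% of 2579 probes under 0.5 to 36.7% of 806 between 0.5 and 1 and 56.2% of 315 between 1 and 2. It was 71.6% of 81 between 2 and 3, and 64.4% of the 59 at 3 or more. A larger O. taurus effect leaves more room for a difference, and this trend was not tested apart from that. In the bin from 1 to 2 the median size was 1.31 in O. taurus and 0.618 in O. nigriventris. At 3 or more it was 3.59 and 2.45.

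OtL006-A08 was the probe of this smaller class among the widest differences. It stood at -3.80 to -5.93 in O. taurus and at -6.77 to -0.28 in O. nigriventris, with a mean effect of -5.24 against -2.49. All 31 arrays were negative and the species overlapped. The difference was 2.76 ± 0.43 (limma adjusted p = 1.96e-05), and with thorax in Cy3 alone it did not pass, at an adjusted p of 0.072.

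Effects stronger in O. nigriventris were fewer. OtL002-E09 was the one probe of the 16 with the effect of O. nigriventris as the larger. In O. nigriventris it was positive on all 19 arrays, from 1.22 to 6.11 in females (median 2.86) and from 1.29 to 5.95 in small males (median 3.38). The large males were at 4.28, 5.55, 4.61, 2.58 and 6.33. In O. taurus it was 0.38, 0.83, 1.94 and 1.76 in females, 0.43, 0.42, 0.33 and 0.77 in large males, and 0.25, 0.35, 0.85 and 1.89 in small males. The groups of females and of small males overlapped between species, and those of large males did not. The difference was 3.06 ± 0.47 (limma adjusted p = 1.43e-05), with an O. nigriventris effect of 3.91 ± 0.30 and an O. taurus effect of 0.85 ± 0.36. Both SEs use the spread shared by the species. The SDs in females, large males and small males were 1.75, 1.42 and 1.72 in O. nigriventris and 0.75, 0.19 and 0.75 in O. taurus. It averaged only 0.13 in O. taurus heads and 0.53 in legs.

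Further probes of these classes were chosen after their values were seen. Among those called in both species and larger in O. nigriventris, OtL004-C04 had an effect of -2.12 ± 0.18 against -0.90 ± 0.22 in O. taurus, and OtL010-E06 had -1.91 ± 0.12 against -0.69 ± 0.14. OtL009-C12 was positive at 2.02 ± 0.20 against 0.87 ± 0.25. Among those called in O. nigriventris alone, OtL001-E02 stood at 1.65 ± 0.22 against 0.52 ± 0.27, and OtL008-C06 at 1.02 ± 0.14 against -0.10 ± 0.18. The negative ones included OtL020-C12 at -1.03 ± 0.14 against 0.33 ± 0.17 and OtL018-B06 at -0.84 ± 0.15 against 0.23 ± 0.18. OtL010-E06 was negative on all 31 arrays. OtL020-C12 was negative on 16 of 19 O. nigriventris arrays and positive on 11 of 12 O. taurus arrays. Of the 12 O. taurus arrays, 11 were positive for OtL018-B06, 10 for OtL001-E02 and 6 for OtL008-C06. The SEs use a spread shared by both species, so a missing O. taurus call does not show that an effect was absent.

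Opposite signs were called in both species for 32 probes. OtL002-E05 had the widest such difference, -4.07 ± 0.21 (SE, limma adjusted p = 7.9e-15). In O. taurus it was 2.78, 2.21, 2.70 and 2.67 in females, 3.94, 3.63, 4.18 and 3.46 in large males, and 2.79, 3.63, 3.92 and 3.51 in small males. In O. nigriventris the females ranged from -2.20 to 0.93 (median -1.40) and the small males from -2.72 to -0.60 (median -1.13). The large males stood at -0.74, 0.04, 0.50, 0.58 and 1.13. All O. taurus arrays were positive and lay above all O. nigriventris arrays, of which 14 were negative. The O. nigriventris females averaged -1.18 and the small males -1.27, while large males averaged 0.30 ± 0.70 (SD, n = 5). Species by morph and species by sex gave 0 calls, so the group means of this probe are given as values only. The negative effect of O. nigriventris, -0.79 ± 0.14, was not called with thorax in Cy5 alone.

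OtL018-D08 was positive on all 19 O. nigriventris arrays (0.26 to 2.81) and negative on 10 of 12 O. taurus arrays (-2.25 to 0.25), differing by 1.91 ± 0.23. The 2 positive O. taurus arrays, small male 4 at 0.25 and large male 4 at 0.13, came near the O. nigriventris range without overlapping it. The O. taurus effect was not called with thorax in Cy3 alone (adjusted p = 0.197). OtP017-F11 differed by 1.78 ± 0.18, with all 12 O. taurus arrays negative and 17 of 19 O. nigriventris arrays positive. OtL019-B05 and OtP004-F09 were opposite in the other direction. OtL019-B05 was positive on 12 of 12 O. taurus arrays and negative on 18 of 19 O. nigriventris arrays, with a difference of -2.15 ± 0.19. OtP004-F09 differed by -2.09 ± 0.18, and 13 of its 19 O. nigriventris arrays were negative. Its O. nigriventris effect was not called with thorax in Cy3 alone (adjusted p = 0.0649). OtL013-G02 completed the set at 2.62 ± 0.37. Its O. taurus mean of -2.01 ± 0.28 included large male 3 at -5.28, where the other 11 arrays lay between -2.27 and -1.27, and its O. nigriventris effect of 0.62 ± 0.23 did not pass in 17 of 45 settings.

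A larger number of probes had a called effect of the same sign in both species. Of 901 probes called in both, 869 had the same sign, and for 650 of these the species difference was not called, 369 positive and 281 negative. OtP008-D05 was among the strongest, at 4.34 ± 0.24 in O. nigriventris and 4.85 ± 0.30 in O. taurus. Its values were 2.45 to 6.34 on 19 arrays and 3.74 to 5.62 on 12. The 95% interval of the difference was -1.29 to 0.29, so a reduction of over 1 unit is not excluded by these arrays.

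OtL016-H05 averaged 4.40 ± 0.32 in O. nigriventris and 4.35 ± 0.39 in O. taurus, with an interval of the difference from -0.97 to 1.07. It was close to 0 in O. taurus head and legs, at 0.34 and 0.39, and OtP012-E12 was likewise high in the thorax alone. OtP012-E12 averaged 3.13 in O. nigriventris and 3.67 in O. taurus thorax, and -0.13 and -0.74 in O. taurus head and legs (interval of the difference -1.18 to 0.10). Both probes were thus positive in the thorax of both species, on all 31 arrays, and near or below 0 in the head and legs of O. taurus. On the negative side OtL015-C02 averaged -3.68 and -4.04 in O. nigriventris and O. taurus (interval -0.15 to 0.86), and OtL004-F05 -3.62 and -3.94 (interval -0.08 to 0.73). OtL001-F08 averaged -2.94 and -3.63, and its interval of 0.12 to 1.26 excluded 0 while the limma adjusted p was 0.079. With each array scaled to one spread the difference was called for all 6 of these probes, nearer 0 in O. nigriventris, with adjusted p of 0.0475 for OtL016-H05.

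**Figure D3:**
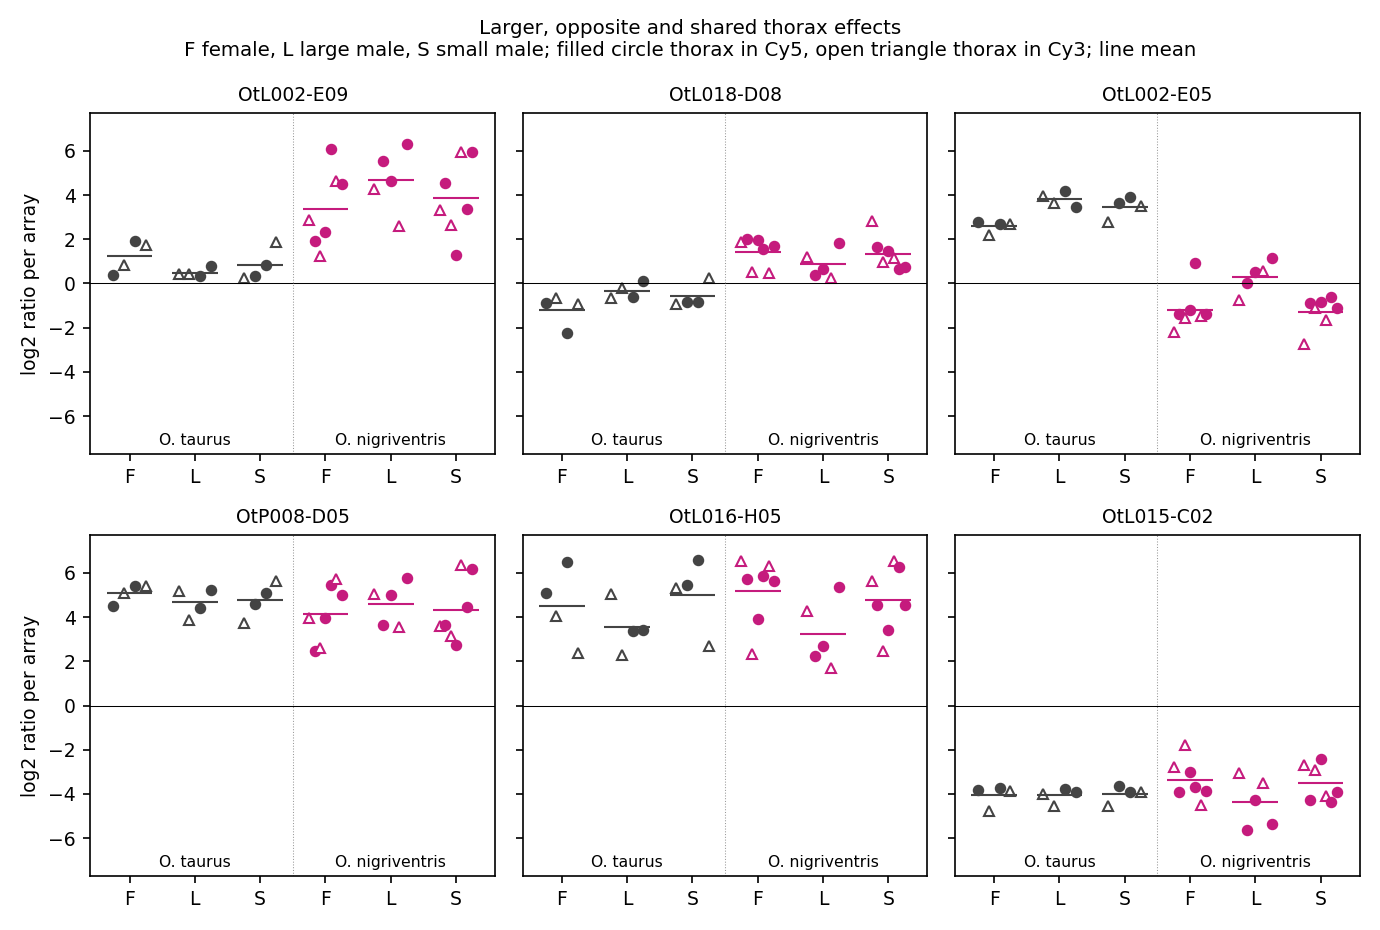
Log2 ratio of thorax and abdomen on each of 31 arrays for 6 probes with larger, opposite or shared effects (vertical axis; F female, L large male, S small male; filled circles thorax in Cy5, open triangles thorax in Cy3; lines group means). OtL002-E09 is higher in O. nigriventris, OtL018-D08 and OtL002-E05 have opposite signs, and in the bottom row the species overlap.

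Within single groups, each with fewer arrays, fewer probes passed. In females 342 probes were called (8.91% of 3840), 208 positive and 134 negative. In large males there were 154 (4.01%), 83 and 71, and in small males 172 (4.48%), 93 and 79. The median standard error of a difference was 0.329 in females, 0.352 in large males and 0.329 in small males, against 0.195 for the average. Of the 754 probes called on average, 76 were called in all 3 groups, 87 in any 2, 225 in 1 and 366 in none. With thorax in Cy3 alone the female, large male and small male counts were 42, 46 and 72, and with array weights 786, 259 and 308. The counts of the groups also rested on single O. taurus arrays. Females gave 160 without female 1 and 222 without female 2 or female 4. Large males gave 89, 100 and 99 without large males 1, 2 and 4. Small males gave 107, 112, 92 and 105 without small males 1, 2, 3 and 4.

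The widest positive difference was OtP014-B04 in females at 4.47 ± 0.35, and OtL006-H03 in large males at 4.21 ± 0.76 and in small males at 4.59 ± 0.71. The widest negative was OtL009-F10 in females at -4.47 ± 0.59 and in large males at -5.43 ± 0.63, and OtL002-E05 in small males at -4.80 ± 0.36. All 6 were called within their group (limma). With thorax in Cy3 alone, OtL009-F10 was not called in females (adjusted p = 0.0513) nor OtL006-H03 in small males (2.69, adjusted p = 0.0964), and with thorax in Cy5 alone OtL006-H03 was not called in large males (adjusted p = 0.0525). OtP014-B04 was lower in small males, at 2.91 ± 0.35, and OtL002-E09 ran from 2.09 ± 0.79 in females, where it was not called (adjusted p = 0.0964), to 4.11 ± 0.85 in large males. The test of whether differences vary among groups is given next.

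**Figure D4:**
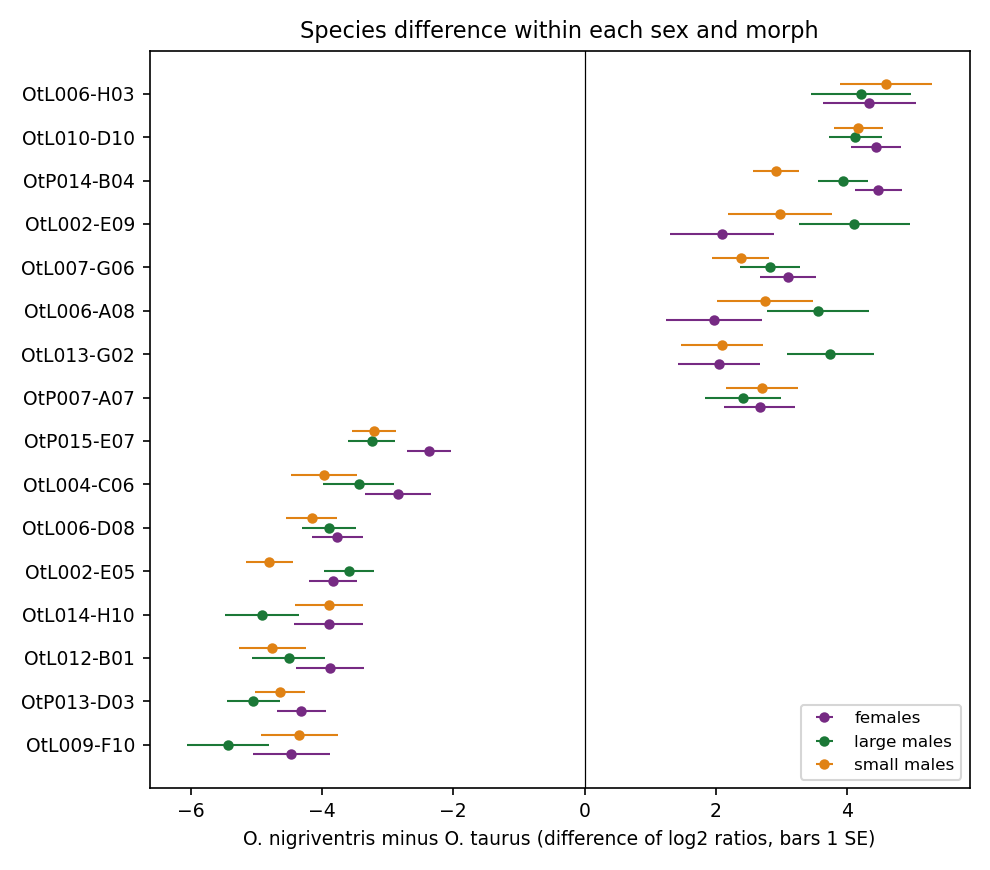
Species difference within females, large males and small males for the 16 probes with the widest averaged differences (horizontal axis, difference of log2 ratios, O. nigriventris minus O. taurus; points estimates, bars 1 SE). The sign is the same in all 3 groups because the probes were chosen for it, and the bars show that OtL002-E09, OtL006-A08 and OtL013-G02 are the least precise on the positive side beside OtL006-H03.

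Because the male morphs differ in horn growth and the species in its site, a dependence of the species difference on morph or sex was tested directly, and none was called. Species by morph, the large minus small male contrast of O. nigriventris less that of O. taurus, gave 0 calls by limma, where 126 had an unadjusted p under 0.05 and the smallest adjusted p was 0.994. Species by sex gave 0 calls, 171 unadjusted and a smallest adjusted p of 0.358. An F test over the 3 groups gave 0 calls, 142 unadjusted and a smallest adjusted p of 0.880. The median standard errors were 0.481 for the morph and 0.407 for the sex contrast, which limits the size of a dependence that could be detected at a single probe.

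The probes nearest to a call are given as values. For the morph contrast OtL010-F09 was at -1.85 ± 0.51. Its O. taurus large males, 2.73, 2.81, 2.58 and 2.25, were above its small males, 1.74, 0.93, 1.21 and 1.25, while in O. nigriventris the large males averaged 0.34 and the small males 0.85. OtP005-E09 was at 1.54 ± 0.48 and OtP020-E01 at 1.39 ± 0.43. Both averaged higher in large than in small O. nigriventris males, 1.21 against -0.22 and 0.78 against -0.12. The adjusted p was 0.994 for all 3 probes (limma).

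For the sex contrast OtP002-D01 was at 1.84 ± 0.41 (limma adjusted p = 0.358). In O. taurus its females were at -0.92, -1.45, -0.64 and -0.54, below the males, which averaged 0.56 when large and 0.52 when small. In O. nigriventris the groups overlapped. OtP009-A01 was at 2.15 ± 0.50 (adjusted p = 0.379), and here the contrast lay in O. nigriventris, whose large males were at -0.75, -2.20, -3.13, -1.33 and -0.67 and whose females ran from -0.45 to 1.59. OtP009-F05 was at 1.77 ± 0.43. OtP009-A01 was called when each species had its own variance weight, and OtP009-A01 and OtP002-D01 were called when the species were fitted apart.

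The averaged thorax effects of the species correlated across probes with r = 0.729 and rho = 0.593, and 67.9% of probes had the same sign. The least-squares slope of O. nigriventris on O. taurus was 0.513. Probes are not independent replicates, and the noise of the O. taurus mean lowers a slope, so both values are descriptions. Within groups r was 0.641 in females, 0.684 in large males and 0.663 in small males, with slopes of 0.426, 0.563 and 0.489. The thorax effect of O. nigriventris also correlated with the O. taurus head (r = 0.676, slope 0.385) and legs (r = 0.674, slope 0.427), which are other arrays against the same kind of abdominal tissue. In large males, the horned morph of both species, r was 0.684 for thorax on thorax, 0.667 for O. nigriventris thorax on O. taurus head and 0.623 on legs. These differences between tissues were not tested.

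The other O. taurus tissues showed how the classes behaved outside the thorax. Of the 34 probes called in both species and larger in O. nigriventris, 33 had the sign of O. nigriventris in O. taurus head and 33 in legs, where 2580 and 2563 of all 3840 probes had it. Their median in the O. nigriventris direction was 0.685 in O. taurus thorax, 1.44 in head and 1.16 in legs, beside 1.49 in O. nigriventris thorax. The class was selected for an O. taurus thorax effect smaller than that of O. nigriventris. This selection favours head and leg values nearer to O. nigriventris, so the medians are a description and no test. OtL009-C12 of this class stood at 2.02 in O. nigriventris, 0.87 in O. taurus thorax, 2.51 in head and 1.79 in legs. The sign was shared as often by the 185 probes smaller in O. nigriventris, 183 in head and 182 in legs. Of the 79 probes called in O. nigriventris alone, 36 had its sign in O. taurus head and 39 in legs, with medians of -0.076 and -0.0027. Of the 407 called in O. taurus alone, 388 kept the O. taurus sign in its head and 380 in its legs. Over all 3840 probes the O. taurus thorax sign was kept at 3247 in head and 3184 in legs. Of the 32 opposite probes, 28 and 30 had the O. taurus thorax sign in head and legs.

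The dye orientation went with a difference in the ratios at many probes in O. nigriventris and at no called probe in O. taurus. The dye covariate, thorax in Cy5 minus thorax in Cy3, was called for 1299 probes in O. nigriventris (33.8%), 967 positive and 332 negative. In O. taurus limma called it for 0 probes, and 50 had an unadjusted p under 0.05. Array medians were -0.166 to -0.0375 on the 8 O. nigriventris arrays with thorax in Cy3 and 0.0166 to 0.166 on the 11 with thorax in Cy5. The covariate was called for 33.7% of the 407 probes called in O. taurus alone, and for 35.3% of the 3086 probes whose species difference was not called. In the other classes of called probes the share was 17.6% to 22.2%. Its part in the species difference was not tested beyond the fits of single orientations. Of the 754 probes, which were chosen on both orientations together, 743 had the same sign with thorax in Cy5 alone and 742 with thorax in Cy3 alone. In these smaller fits 419 and 316 of them were called with the same sign, and 163 in both. Over all 3840 probes, 80 were called with opposite signs of the species difference in the 2 orientations, 1 of them among the 754.

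**Figure D5:**
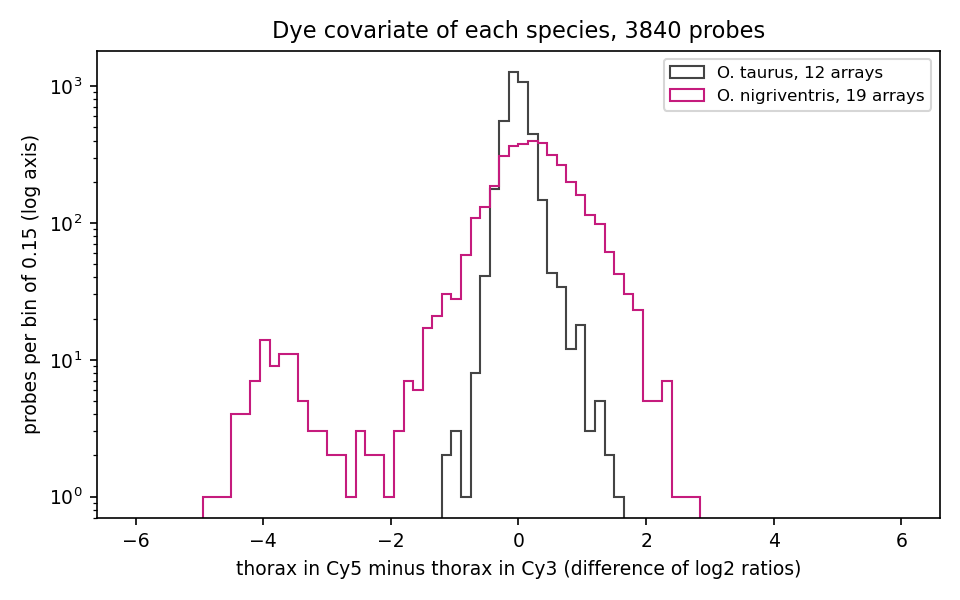
Distribution of the dye covariate over 3840 probes in each species (horizontal axis, thorax in Cy5 minus thorax in Cy3, difference of log2 ratios; vertical axis, probes per bin on a log scale). O. taurus is narrow around 0, and O. nigriventris is wider, with a separate peak near -4.

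The separate peak of the O. nigriventris covariate belonged to a run of neighbouring wells. Of 87 probes with a covariate below -2, 76 were the probes of wells E11 to H12 on the 2 plates numbered OtL002 and OtP002, 38 wells each, and all 76 wells of that run were below -2. Their covariate ranged from -4.89 to -2.62 in O. nigriventris and from -1.07 to 0.39 in O. taurus. The median ratio over the run was 1.40 to 3.10 on the 8 O. nigriventris arrays with thorax in Cy3, and -2.36 to -0.25 on the 11 with thorax in Cy5. On the O. taurus arrays it was -0.093 to 0.165. The run had thorax effects near 0 in both species once the dye was fitted. Of its 76 probes, 1 was called in O. taurus and 5 in O. nigriventris, and 1 was among the 754 called differences. Over all 3840 probes the shares called were 45.5% in O. taurus, 31.5% in O. nigriventris and 19.6% for the difference. Outside the run 1223 probes of O. nigriventris still had a called covariate. Without the run the mean correlation between O. nigriventris arrays was 0.453 for the same orientation and 0.275 for opposite orientations. With it these were 0.490 and 0.161.

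The share of probes with a called species difference also varied over the array, which was not tested. It was 21.1% of the 1920 probes with the prefix OtL and 18.2% of the 1920 with OtP. By plate it ran from 11.5% on OtL011 to 31.2% on OtL016, with a median of 19.3%. The wells of the named probes OtL002-E05 and OtL002-E09 lie on plate OtL002 before the run, and their dye covariates were 0.89 and 0.77.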

How the data were processed

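RNA pools of thoracic and abdominal epidermis were amplified by in vitro transcription, labelled with Cy5 and Cy3 and hybridised to 2-colour arrays, per the labels' protocols. The authors deposited 1 normalised log2 ratio per probe and array. The base is taken from the submitters' processing notes, which name limma. Its version, the background correction and the within-array normalisation are not given in those sources. Ratios of O. taurus arrays of opposite dye orientation correlated at 0.722 or more. Those of O. nigriventris averaged 0.161, with 4 of 88 pairs below 0, and 0 of 88 below 0 without 76 neighbouring wells described in the report. Every O. nigriventris array of either orientation correlated above 0 with every O. taurus array, at 0.209 or more. The deposited values were therefore taken as already turned and used unchanged. Scanner intensities were not used here, so probes near background could not be identified.

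The 31 thorax arrays were fitted together in limma 3.58.1 (R 4.3.3): 6 group means, and a dye covariate for each species, without a replicate block. P-values were adjusted over 3840 probes by the Benjamini-Hochberg method, with a threshold of 0.05, and the same fit gave all effects, standard errors and 95% intervals. Sharing the spread with O. nigriventris makes the counts for O. taurus lower than a fit of O. taurus alone. The residual SD was 0.337 in O. taurus and 0.698 in O. nigriventris. The SEs of single-species effects are therefore mostly too wide for O. taurus and too narrow for O. nigriventris, whose effects are called more easily. The labels do not say that pools of a group were reared apart, so a p-value covers only variation among these pools. No 2 arrays were identical, with a highest correlation of 0.937. The number of arrays limits the precision.

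Probes were named by rule: the 8 widest positive and 8 widest negative averaged differences among called probes with one sign in all 3 groups; the 3 widest in each direction with opposite called effects; the widest called within each group; the 3 with the smallest p for each interaction; and the 3 strongest shared effects in each direction whose difference was not called. The probes, classes and comparisons were chosen with earlier results of these data known. Planned lists of genes and of cell type markers were not run, since no probe could be named. Alternatives were centring, scaling to one spread, dye terms, single orientations, weights, species fitted apart, robust moderation, replicate blocks, other thresholds and the loss of single arrays. Plots used Python 3.11.15 with matplotlib 3.10.9.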

Additional observations from a re-analysis of the deposited data

Results flagged for a closer look

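In 258 sets of 4, 5 or 7 arrays, 16 held an array set apart from the rest by Dixon's criterion at 95%. Chance flags about 1 set in 20. In O. nigriventris these were female 7 at -2.20 for OtL009-F10, female 5 at 0.928 for OtL002-E05, small male 3 at -2.49 for OtL006-D08 and at -1.35 for OtL008-C06, and small male 5 at -2.84 for OtL004-C06. In O. taurus they were large male 4 at 4.02 for OtP013-D03, large male 1 at 6.81 for OtL012-B01, female 1 at 4.34 for OtL006-D08 and small male 4 at 1.90 for OtP015-E07. OtL018-D08 had female 3 at -2.25 and small male 4 at 0.246, OtP005-E09 had small male 1 at -0.0837, OtP020-E01 had large male 2 at -1.16 and OtL015-C02 had female 2 at -4.78. The SD across probes set apart O. nigriventris female 3 at 0.610 and small male 4 at 0.494.

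The thorax effect had opposite called signs in the 2 species, with the difference itself tested, at OtL013-G02 (2.62), OtL002-E05 (-4.07), OtL018-D08 (1.91), OtP017-F11 (1.78), OtL019-B05 (-2.15) and OtP004-F09 (-2.09). These 6 were named for their width among 32 such probes.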

How the results depend on the processing

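The averaged difference passed at 619 to 852 probes when each of the 31 arrays was left out, at 700 without the 2 O. nigriventris arrays of narrow spread and at 793 without these and small male 3, both chosen after seeing the data. It passed at 1350 with scaled arrays (758 positive, 592 negative), 441 at an adjusted p under 0.01 and 219 over 1 in size. Centred arrays gave 462 positive and 287 negative, against 406 and 348. The female count was 189 with thorax in Cy5 alone, 42 in Cy3 alone, 611 with species weights, 786 with array weights, 672 with species fitted apart and 143 under 0.01 (160 to 443 with single arrays left out). The large male count was 608 scaled, 39 in Cy5, 46 in Cy3, 259 with array weights, 260 apart and 82 under 0.01 (89 to 188). The small male count was 615 scaled, 58 in Cy5, 72 in Cy3, 318 with species weights, 308 with array weights, 342 apart and 80 under 0.01 (92 to 191). Morph, sex and F tests stayed at 0 calls in all fits without a single array, and species by sex gave 1 with species weights, 2 with species apart and 1 without the 3 arrays above. The cause was not tested.

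The O. nigriventris effect was called for 247 over 1 in size, and the O. taurus effect for 1047 in Cy3 alone, 2629 with array weights and 455 over 1. The O. nigriventris dye covariate gave 863 apart, 803 under 0.01 and 604 over 1, and that of O. taurus 2 scaled, 3 with species weights and 5 with array weights. The correlation of the species was 0.593 in Cy5 and 0.556 in Cy3, and the slope was 0.369 scaled. The share nearer 0 was 47.2% in Cy5 and 47% in Cy3, and the share farther 6.15% scaled, 39.5% in Cy5 and 42.7% in Cy3. Opposite signs were called for 70 in Cy5. Probes without overlap numbered 81 scaled, 217 in Cy5 and 302 in Cy3. A single orientation compares fewer arrays and also keeps the O. nigriventris dye difference in the ratios. The part of each in these counts was not tested. With single arrays left out the ranges were 1141 to 1234 and 1619 to 1823 for the own effects, 1153 to 1327 for the O. nigriventris covariate, 0.723 to 0.731 for r, 0.497 to 0.525 for the slope, 75.8% to 80.4% nearer, 13.6% to 16.4% farther, 29 to 44 opposite, 599 to 669 shared and 50 to 55 without overlap. The prefixes are given as a description in the report.

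Residuals of the same replicate number correlated at 0.0900 in O. taurus (6 of 12 pairs over 0.1), 0.00893 in O. nigriventris and 0.00501 between species. For different numbers the means were -0.0302 in O. taurus (9 of 36 pairs over 0.1), -0.00143 in O. nigriventris and -0.000961 between species. Whether the numbers pair the O. taurus arrays was not tested. With the replicate block the averaged count was 644 as a factor and 753 as a random block. Of 27 named called differences, 21 stayed called with the same sign in all 45 settings. The exceptions were OtL006-A08, OtL004-C04, OtL009-C12, OtL001-E02, OtL008-C06 and OtL018-B06, the last 5 chosen after their values were seen. Scaled arrays called the difference for all 6 shared probes, OtP008-D05, OtL016-H05, OtP012-E12, OtL015-C02, OtL004-F05 and OtL001-F08. The replicate number as a factor also called OtP008-D05, OtL015-C02 and OtL001-F08, and OtL001-F08 was called in 7 of 45 settings. OtL016-H05 turned sign, at -1.53 scaled, -0.60 in Cy5, -0.56 with the replicate block and -0.151 to 0.325 with single arrays left out, as did OtL015-C02 at -0.35 in Cy5.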
